A study of Mus musculus with 5 samples.

Results

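Spliceosomal small nuclear RNA (snRNA) genes were examined in Surface-seq libraries of EL4 cells, an established mouse lymphoma line grown in suspension. The members are annotated snRNA genes that were chosen by the sum of their counts over the 5 libraries, with a minimum of 50, and 41 of 1383 annotated snRNA genes reached it. Variation B was sequenced more deeply, so this choice favours genes that are high there, and nothing is read from that. Of the other snRNA genes, 957 had 0 counts in every library and 385 had between 1 and 49. Surface-seq reads RNA held on membranes that were purified from the cells and coated onto nanoparticles. For variation A (libraries A1, A2 and A3), all RNA of the coated particles was extracted with phenol-chloroform and then made into libraries. For variation B (B1 and B2), the 3′ adaptor was joined to outward-facing RNA while it was still on the particles, and purification and the 5′ adaptor came afterwards. The comparison of B with A asks which membrane RNAs face outwards, but the variations also differ in how the libraries were made, and these differences cannot be told apart. The labels name no treatment and do not say whether the libraries of a variation came from separate cultures, so p-values measure only the spread between these libraries. Library totals were 21862003 (B1) and 22980172 (B2) against 2301017 (A1), 4502174 (A2) and 1187117 (A3). In CPM, counts scaled to an equal library total, 3 counts come to 1.30, 0.666 and 2.53 in variation A and to 0.137 and 0.131 in variation B. Values of single libraries always follow the replicate numbers. The intervals given here cover counting error only.

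Spliceosomal snRNAs are short nuclear RNAs that are packed with Sm or LSm proteins into the particles that remove introns from pre-mRNA. U1 pairs with the 5′ splice site and U2 with the branch point, U4 carries U6 to the complex in a paired form, and U5 holds the exon ends in the catalytic core. U11 and U12 do the work of U1 and U2 on the rare minor introns. Vertebrate genomes hold many near-identical copies and decayed pseudogenes of these genes, and most of the mouse copies carry only a Gm number.

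A U class could be read from the symbol of 2 members, Rnu5g and Rnu12, among 11 snRNA genes so named. The other members were placed by their best blastn match to a named gene over at least 50% of the shorter sequence, which is likeness of sequence and says nothing of function. Counting Rnu5g and Rnu12 with their own classes, this gave 19 members like U2, 11 like U1, 6 like U5, 1 like U12, 1 like U6 and 3 like none of the named genes. The annotation as a whole is made up differently, with 951 snRNA genes like U6, 198 like U1, 61 like U7, 40 like U2, 11 like U5, 6 like U12, 5 like U11 and 111 like none. Members were 104 to 194 bases long and lay on 17 chromosomes, 16 of them inside an intron of another gene and 25 outside any other gene. No member overlapped an annotated exon of another gene. The counting ignored strand, so reads of a host intron on either strand would be counted on a member, and members inside introns are uncertain. Reads with several alignments were left out, so members with near-identical copies lost reads, and their counts are uncertain too. Of the 30-base windows of a member, a median of 43.0% occurred in no transcript of another gene, against 98.9% for the snRNA genes that are not members. The whole genome sequence was not used here. There were 5 members without any such window (Gm24924, Gm22068, Gm23971, Gm23444 and Gm23849) and 5 in which every window was unique (Gm25783, Gm23887, Gm24623, Gm25259 and Gm22814).

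The sequences shown are given 5′ to 3′ on the gene's own strand, as DNA, and capitals mark ATTTTTG, where Sm proteins bind, which 3.33% of all 1383 snRNA genes hold on the gene strand. Rnu12 (GRCm38 chr15:83149644-83149794, plus strand) is the minor-intron counterpart of U2 and is shown as a member named by its class. Gm24265 (chr5:115489459-115489599, plus strand) and Gm24407 (chr5:115490254-115490394, plus strand) are shown because they match no named gene and were both lower in variation B. No U4 gene has a class symbol in this annotation, so likeness to U4 could not be looked for in the same way. Having no class here therefore does not set the pair apart from U4, which was not tested.
Rnu12: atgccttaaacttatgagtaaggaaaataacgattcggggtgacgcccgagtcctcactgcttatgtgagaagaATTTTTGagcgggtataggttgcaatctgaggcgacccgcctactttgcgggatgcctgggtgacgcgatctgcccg
Gm24265: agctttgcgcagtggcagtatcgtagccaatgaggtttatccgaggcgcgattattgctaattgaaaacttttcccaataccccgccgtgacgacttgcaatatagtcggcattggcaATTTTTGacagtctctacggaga
Gm24407: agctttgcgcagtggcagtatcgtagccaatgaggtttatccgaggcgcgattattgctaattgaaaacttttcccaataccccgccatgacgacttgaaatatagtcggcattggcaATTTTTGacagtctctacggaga
Gm24265 and Gm24407 are 98.6% identical, with 654 bases between them, and differ by G88A and C99A, with the base of Gm24265 first and positions counted from 1 at the 5′ end. Their longest stretch complementary to Rnu6 was TTGCGCAG, 8 bases, which 0.795% of all snRNA genes hold.

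The snRNA share of all counts set A1 apart from A2 and A3, and every result below that rests on A1 is given with that in view. It came to 0.847% for A1, with a 95% Wilson interval of 0.835 to 0.859, 12.1% for A2 (12.05 to 12.1) and 13.1% for A3 (13.07 to 13.2). B1 stood at 1.18% (1.17 to 1.18) and B2 at 0.632% (0.628 to 0.635). A1 thus lay between the B libraries, and the variations overlapped. Other types also set A1 apart, with mitochondrial genes at 1.49% of its counts against 0.122% and 0.138% for A2 and A3, and protein-coding genes at 39.3% against 22.6% and 21.96%. A share moves whenever another type does, and ribosomal RNA alone averaged 52.6% in variation A and 23.6% in variation B. Variation B averaged 0.904% ± 0.385 (SD, n = 2) and variation A 8.69% ± 6.81 (SD, n = 3), a difference of -7.78 percentage points that is little larger than the spread within variation A. An exact permutation test of 3 libraries against 2 cannot go below p = 0.1, and none was run. With ribosomal RNA and mitochondrial genes left out of the total the shares were 1.74%, 26.3% and 28.6% in variation A and 1.57% and 0.856% in B1 and B2, so that all of variation A then lay above variation B. The 41 members held 98.8% of the snRNA counts in A1 and between 99.5% and 99.9% in the other libraries. These are bulk preparations, so fewer particles that carry an RNA and less of it per particle cannot be told apart.

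The classes that made up these counts differed between libraries (the plot of the make-up by U class). Genes like U5 held 90.6% of the members' counts in A2 and 90.8% in A3, 35.0% in A1, and 8.82% in B1 and 13.7% in B2. Genes like U2 held 88.6% in B1 and 79.1% in B2, 40.4% in A1, and 3.81% in A2 and 3.75% in A3. A1 was mixed, with 18.3% on Rnu12 and 3.88% on U1-like genes, against 4.15% and 0.924% in A2. The most counted snRNA gene was Gm25313, like U5, in A2 and A3, Gm22973, like U2, in A1, and Gm25360, like U2, in both B libraries. Per kilobase, the highest mean CPM in variation A was that of Gm25313, at 317942 ± 268394 (SD, n = 3), and then that of Rnu5g, at 188817 ± 158181 (SD, n = 3), within the spread of the first. In variation B the highest was Gm25360 at 16953 ± 8392 (SD, n = 2), then Gm22973 at 14411 ± 7799.6 (SD, n = 2), also within the spread.

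**Figure D1:**
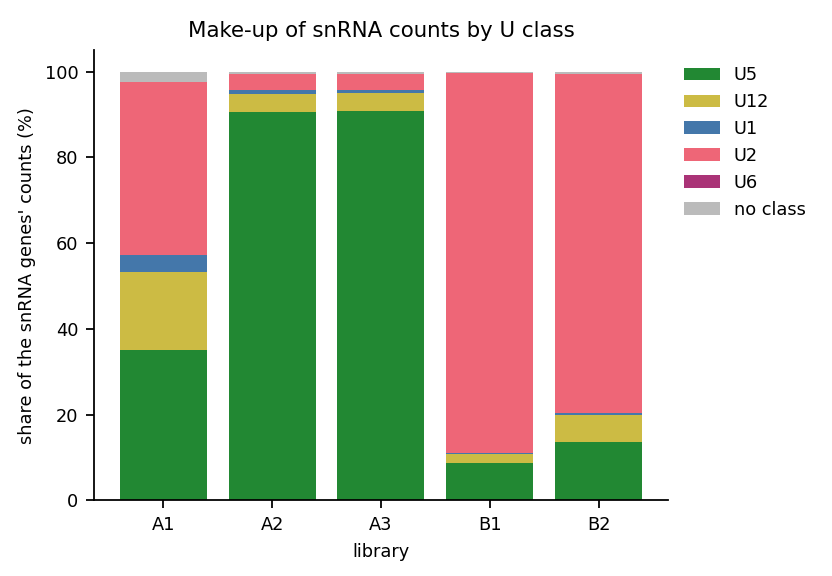
Share of the counts of the 41 snRNA members (%, vertical axis) by U class in each library (horizontal axis), 1 bar per library. U5 fills 90.6% of A2 and 90.8% of A3, U2 fills 88.6% of B1 and 79.1% of B2, and A1 holds both, at 35.0% and 40.4%.

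Each gene was then compared between the variations with edgeR, and a gene was called when it changed more than 2-fold with a Benjamini-Hochberg adjusted p below 0.05. Of the 41 members 37 passed the filter on low counts, and Gm24623, Gm23849, Gm25541 and Gm22814 did not. The test called 5 members higher in variation B and 22 lower, and 10 were not called. Among all 10287 genes tested, 11.0% were called higher and 12.4% lower. Of the 5 called higher, Gm22984, Gm22423, Gm26108 and Gm25783 had at most 13 counts in variation A and became members through variation B. Of the 22 called lower, Gm24924, Gm26244, Gm25189 and Gm23510 became members through variation A. Part of both counts is thus built into the choice. The median log2 fold change of the members tested was -4.33, against 0.05 for all genes. Fold changes are on the TMM scale, which takes most genes as unchanged. On library totals the median over all genes moves to 1.50, so a gene whose CPM is somewhat higher in B can have a log2 fold change near 0. On that scale 11 members were higher and 21 lower. Higher calls then made up 34.4% of the member calls, against 18.5% with TMM, while for all genes they went from 47.1% to 94.9%. The 6 members gained were Gm23887, Gm23971, Gm25106, Gm25202, Gm25259 and Gm25360, all like U2, and the 1 lost was Gm23686, like U1, at a log2 fold change of -3.43. Of those gained, Gm23887, Gm23971, Gm25106 and Gm25259 became members through variation B, so their calls are not support for a rise. By CPM, both B libraries lay above all A libraries for 11 of the 37 members and below them for 20, against 75.0% and 5.06% of all genes tested. Single libraries mattered to the counts: without A1, 9 of 40 members tested were higher and 26 lower. Without A3, 3 of 39 were higher and 18 lower. Calls over all genes moved as well, to 2526 higher and 1821 lower of 12127 tested without A1. Without A3 they were 431 and 466 of 12064. Without B1 or without B2 fewer members and fewer genes of all types were called in each direction. Those fits rest on 1 library of variation B, with a median log2 fold change of the members of -4.96 and -4.42.

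**Figure D2:**
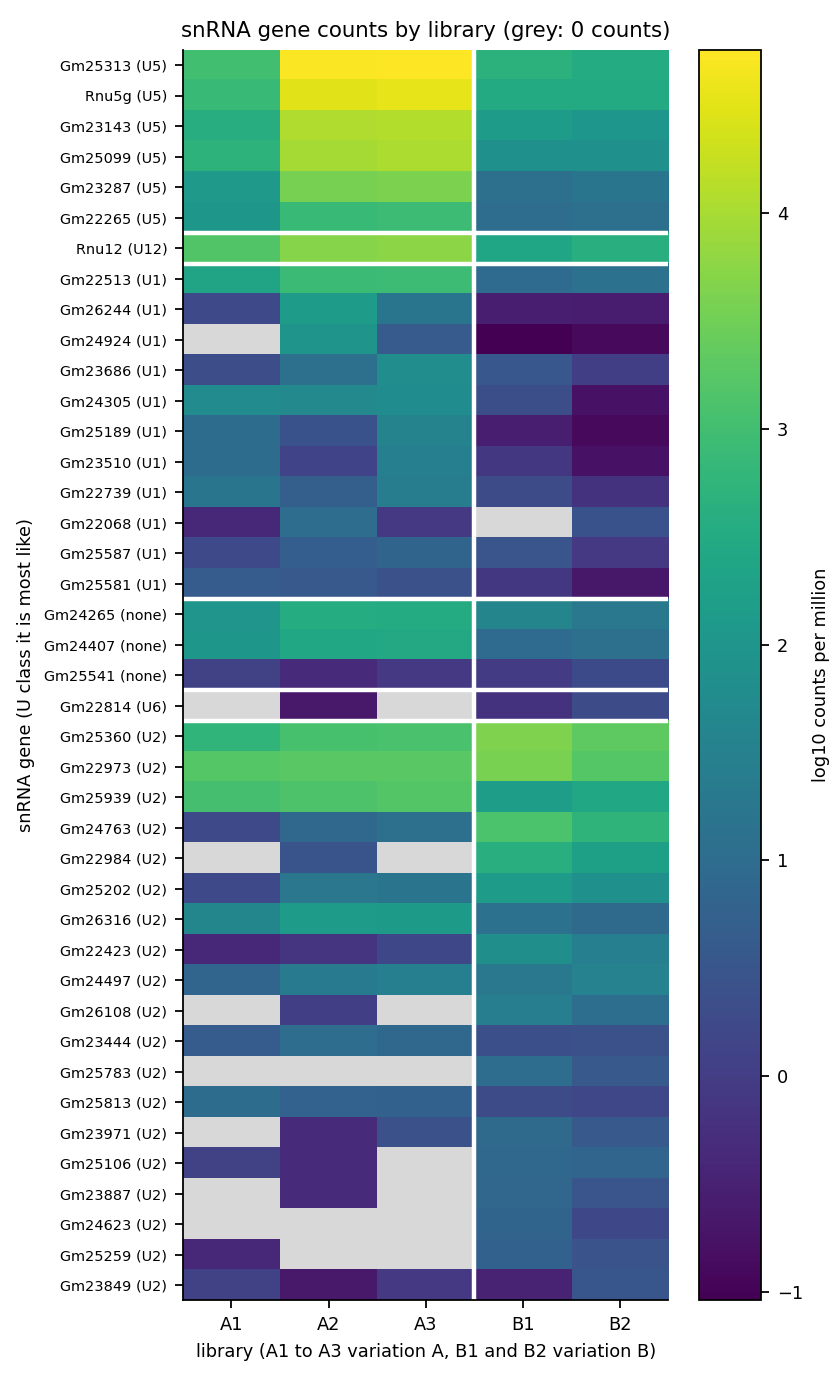
CPM of each of the 41 snRNA members (vertical axis, with the U class it is most like) in each library (horizontal axis), as colour on a log10 scale, with grey for 0 counts. The U5-like genes reach 56898 CPM in A3, and several U2-like genes are at 0 in A1 and A3 but not in B1 and B2.

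All 6 U5-like members were called lower in variation B. U5 is the snRNA that both spliceosomes share. Gm25313 had a CPM of 1012, 52734 and 56898 in variation A, against 486 and 340.2 in variation B. Rnu5g had 792, 30895 and 34021 in variation A, against 313 and 317 in variation B. A2 and A3 were near each other and far above the rest, and A1 was far below them but still above both B libraries. The same order held for Gm23143 (CPM 379, 11720.1 and 12402 in variation A, 137 and 99.5 in B1 and B2) and Gm25099 (508, 9654 and 10811, against 73.9 and 72.5). It also held for Gm23287 (128, 3661 and 4020, against 12.9 and 16.7) and for Gm22265 (108, 754 and 864, against 10.6 and 12.5), which was not among the genes the naming rule picked. The ratio of A2 to A1 ran from 6.96 for Gm22265 to 52.1 for Gm25313, with a median of 29.8, while its median over 2585 genes with at least 20 counts in every A library was 0.791. The ratio of A2 to A3 ran only from 0.872 to 0.945 in the same 6 genes.

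The log2 fold changes of the U5-like genes ran from -9.15 for Gm23287 (approximate SE 1.73, edgeR with Benjamini-Hochberg adjusted p = 0.00995) to -7.31 for Gm22265 (approximate SE 1.15, edgeR with Benjamini-Hochberg adjusted p = 0.00542). Gm25313 was at -8.18 (approximate SE 2.00, edgeR with Benjamini-Hochberg adjusted p = 0.0230) and Rnu5g at -7.82 (approximate SE 1.85, edgeR with Benjamini-Hochberg adjusted p = 0.0206). All were lower in both B libraries than in each A library. On library totals the 6 stayed lower, from -7.46 to -5.64. Without A3 the calls of Gm25313 and Rnu5g were lost (edgeR with Benjamini-Hochberg adjusted p = 0.0540 and 0.0503). Without B1 or without B2 all 6 were lost, with fold changes of like size (edgeR with Benjamini-Hochberg adjusted p between 0.0547 and 0.160, and between 0.0646 and 0.197). Over all alternatives the adjusted p of the 6 genes, from edgeR or DESeq2 with Benjamini-Hochberg adjustment, ran from 4.33e-16 to 0.197. Gm25313 and Rnu5g are 97.4% identical and both lie in an intron of Parp16. Gm25313 has 13.8% unique windows, as has Rnu5g, so how reads were divided between the pair is uncertain. In Gm22265, with 85.1%, the direction was the same, though it lies in an intron of Hhat and is uncertain for that reason.

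Rnu12, the U12 gene of the minor spliceosome, was also lower in variation B. Its CPM was 1531, 5014 and 5469 in variation A, and 228 and 398 in variation B. All A libraries lay above both B libraries, with A1 again the lowest of variation A. Only 12.3% of the windows of Rnu12 were unique, so its counts are uncertain. The log2 fold change was -5.31 (approximate SE 0.94, edgeR with Benjamini-Hochberg adjusted p = 0.00827), and -3.68 on library totals. The call was lost without B1 (edgeR with Benjamini-Hochberg adjusted p = 0.0993) and without B2 (edgeR with Benjamini-Hochberg adjusted p = 0.101), the highest values over its alternatives, the lowest being 2.36e-12 with DESeq2. Rnu11, the U11 gene, had 0 counts in every library, which allows a CPM of up to 0.131 in B2 and 2.53 in A3. Its windows were 81.0% unique.

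Of the 11 U1-like members 9 were called lower, none higher, and Gm22068 and Gm25587 were not called. Gm22513 was the most counted of them, with a CPM of 222, 798 and 874 in variation A, against 9.83 and 14.0 in variation B. All A libraries lay far above both B libraries. Its log2 fold change was -7.37 (approximate SE 0.94, edgeR with Benjamini-Hochberg adjusted p = 0.00246), and it kept its call under each of 11 alternatives, with adjusted p from 7.95e-23 (DESeq2) to 0.0356 (edgeR, Benjamini-Hochberg). It was singled out after its values were seen, as was Gm24305, whose CPM was level at 56.1, 49.98 and 60.7 in variation A, against 2.29 and 0.174 in variation B. Its fitted log2 fold change was -7.01, and -5.49 on library totals. It depends on the B library kept, at -9.68 without B1 and -6.13 without B2. The largest fitted falls among the members, -9.75 and -9.27, belonged to Gm24924 and Gm26244, and both owe most of their counts to A2. Gm24924, in an intron of Ss18, had 0, 404 and 5 counts in variation A and 2 and 3 in B1 and B2. Gm26244, in an intron of Rock1, had 4, 621 and 19 counts, and 6 in each B library. Both genes became members through variation A, so being lower in B is partly built into the choice. Their calls are not support for a fall. With 0 counts in A1, whether A1 of Gm24924 lies above or below the B libraries is not resolved. Pooled by group and scaled by TMM, the counts of Gm24924 were 1294 times higher in A (95% interval 549.9 to 4006) and those of Gm26244 849 times (483 to 1651). Without A2, or without A3, Gm24924 did not pass the filter on low counts, and Gm26244 was at -6.38 without A2. The calls of both Gm24924 and Gm26244 were lost without B1 and without B2.

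The other 5 U1-like members called lower had a mean CPM in variation A between 3.55 ± 0.930 for Gm25581 and 26.004 ± 32.6 for Gm23686 (SD, n = 3). Their means in variation B ran from 0.202 ± 0.102 for Gm25189 to 2.26 ± 1.66 for Gm23686 (SD, n = 2). Gm25189 and Gm23510 became members through variation A, so their lower values in B are partly built into the choice. Gm23686 was not called without A3 (log2 fold change -3.30, edgeR with Benjamini-Hochberg adjusted p = 0.0788), and Gm25581 not without A2 (-4.06, edgeR with Benjamini-Hochberg adjusted p = 0.0865). Without B1, 5 of the 9 U1-like calls remained, namely Gm22513, Gm22739, Gm24305, Gm25189 and Gm25581. Without B2, Gm22513 and Gm24305 remained. Over the alternatives, adjusted p of these 9 genes from edgeR or DESeq2 (Benjamini-Hochberg) ran from 4.55e-23 to 0.179. Without A1 all 11 U1-like members were called lower, and without A2 the log2 fold change of Gm22068 shrank from -3.48 to -0.17, and without B2 it is fitted against 0 counts in B1 and has no size. Gm22068, whose sequence 7 snRNA genes share with Rnu1a1 among them, had 1, 49 and 1 counts in variation A, and 0 and 60 in B1 and B2. The named U1 genes were nearly empty: Rnu1b1 had 0 counts everywhere, Rnu1b2 had 3 and Rnu1b6 had 2, all in A2, and Rnu1a1 had 16 in A2, 1 in A3 and 16 in B2. None of these 4 genes has a unique 30-base window, so the files cannot show their level.

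Gm24265 and Gm24407, the close pair like no named gene, were lower in variation B as well. Gm24265 had a CPM of 96.0, 356 and 331 in variation A, against 39.9 and 19.2 in variation B. Gm24407 had 108, 271 and 287 in variation A, against 9.56 and 12.8 in variation B. For both genes every A library lay above every B library. The log2 fold changes were -4.79 (approximate SE 0.82, edgeR with Benjamini-Hochberg adjusted p = 0.00764) and -5.93 (approximate SE 0.72, edgeR with Benjamini-Hochberg adjusted p = 0.00199). At equal length, the ratio of Gm24265 to Gm24407 was 0.891, 1.31 and 1.15 in variation A, 4.17 in B1 and 1.50 in B2. Without B2 the call of Gm24265 was lost (edgeR with Benjamini-Hochberg adjusted p = 0.0923). Over its alternatives the adjusted p of Gm24265 ran from 1.19e-09 (DESeq2) to that value, and Gm24407 kept its call, at no more than 0.0297 (edgeR, Benjamini-Hochberg). The pair was picked after its values were seen.

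Genes like U2 were the only ones called higher in variation B, and they went in both directions, with 5 higher, 4 lower, 8 not called and 2 not tested. The most counted of the 5 was Gm24763, in an intron of Tenm1, with a CPM of 1.74, 8.22 and 12.6 in variation A, against 1291 and 548 in variation B. Gm22984 had 0, 2.89 and 0 in variation A, against 417 and 179.9 in variation B. Gm22423 had 0.435, 0.666 and 1.68 in variation A, against 69.6 in B1 and 29.4 in B2. In all these genes both B libraries lay far above variation A, and B1 lay above B2 by a factor between 2 and 3. Of the 5 called higher, only Gm24763 had enough counts in variation A, 56, to reach the minimum sum there alone. Its log2 fold change was 5.40 (approximate SE 0.76, edgeR with Benjamini-Hochberg adjusted p = 0.00371), and 4.65 without B1 and 5.85 without B2. It kept its call under every alternative run, with adjusted p from 1.21e-12 to 0.0208 (edgeR, Benjamini-Hochberg). Gm22984 and Gm22423, with 13 and 6 counts in variation A, became members through variation B, so their calls are not support for a rise and only their ratios are given. Pooled and scaled by TMM, B was higher by a factor of 46.1 for Gm24763 (95% interval 35.5 to 61.0), 64.5 for Gm22984 (37.7 to 121) and 23.1 for Gm22423 (10.6 to 63.1).

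Gm26108 and Gm25783 were the other 2 called higher. Like Gm22984, Gm22423 and Gm24623, they became members through their counts in variation B, so being higher there is partly built into the choice, and the values are descriptions without a p. Gm26108 had a CPM of 0, 1.11 and 0 in variation A, against 27.3 in B1 and 11.4 in B2, and a pooled ratio of 10.8 (95% interval 4.63 to 33.5) from 5 counts in variation A. All of these came from A2. Gm25783, in an intron of Cyp39a1, had 0 counts throughout variation A, with 234 in B1 and 88 in B2. Against a floor of 3 counts over variation A it was at least 6.79-fold higher with the B libraries pooled, 10.02-fold by B1 alone and 3.65-fold by B2 alone. Both calls were lost without A3, B1 or B2, and that of Gm25783 also without A2. Gm24623, too low to be tested, also had 0 counts in variation A, with 149 in B1 and 38 in B2. That is at least 3.94-fold higher when pooled, 6.38-fold by B1 alone and 1.58-fold by B2 alone, so B1 carries it.

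The most counted U2-like genes, Gm25360 and Gm22973, were not called. Gm25360 had a CPM of 569, 1187 and 1239.98 in variation A, against 4371 and 2105 in variation B. Its CPM was higher in both B libraries than in any A library, but on the TMM scale the log2 fold change was 0.09 (approximate SE 0.60, edgeR with Benjamini-Hochberg adjusted p = 0.923). That value turned to -0.17 without A1 and -0.52 without B1, and on library totals it was 1.70 and called (edgeR with Benjamini-Hochberg adjusted p = 0.0326, the lowest over its alternatives, with 0.951 with DESeq2 the highest), so its direction cannot be given. Gm22973 had 1652, 1856 and 1901 in variation A, against 3806 in B1 and 1699 in B2, which overlap. Its log2 fold change was -0.94 (approximate SE 0.53, edgeR with Benjamini-Hochberg adjusted p = 0.218), turned to 0.61 on library totals, and was -1.03 and called without A1 (edgeR with Benjamini-Hochberg adjusted p = 0.0110, the lowest over its alternatives, with 0.753 the highest). Its CPM was the most level of the leading snRNA genes within variation A, where it varied by less than 1.2 times. The other 6 not called were Gm25202, Gm24497, Gm25106, Gm23971, Gm23887 and Gm25259, with log2 fold changes between -1.08 for Gm24497, which turned to 0.51 on library totals, and 3.51 for Gm25259. Without A1, Gm25202, Gm25106 and Gm25259 were called higher and Gm24497 lower. Gm25106 and Gm25259 became members through variation B, so their calls are not support for a rise.

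Called lower among the U2-like genes were Gm25939, Gm26316, Gm23444 and Gm25813, with log2 fold changes between -4.87 and -3.28, and between -3.24 and -1.70 on library totals. Gm25939 had a CPM of 1087, 1351 and 1562 in variation A, against 165 and 257 in variation B. All A libraries lay above both B libraries. Its log2 fold change was -4.21 (approximate SE 0.57, edgeR with Benjamini-Hochberg adjusted p = 0.00318). Its call was lost without B1 (edgeR with Benjamini-Hochberg adjusted p = 0.0602) and without B2 (edgeR with Benjamini-Hochberg adjusted p = 0.0568), with 5.10e-17 from DESeq2 the lowest over the alternatives. Of the others Gm25813 kept its call under every alternative, Gm26316 lost it without B2, and Gm23444 lost it without A2, B1 or B2. Gm25939 stands against Gm25360, to which it is 98.4% identical. At equal length, Gm25360 was at 0.523, 0.878 and 0.794 of Gm25939 in variation A, but at 26.4 times in B1 and 8.19 times in B2 (the plot of the close pairs). This ratio is taken within each library, so no scaling between libraries moves it. The share of unique windows is 37.0% in Gm25360 and 18.5% in Gm25939, so reads that fit both were left out of both. Gm24497, 98.95% identical to Rnu2-10, had a CPM of 6.95, 20.7 and 28.6 in variation A and 19.5 and 33.1 in variation B, which overlap.

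**Figure D3:**
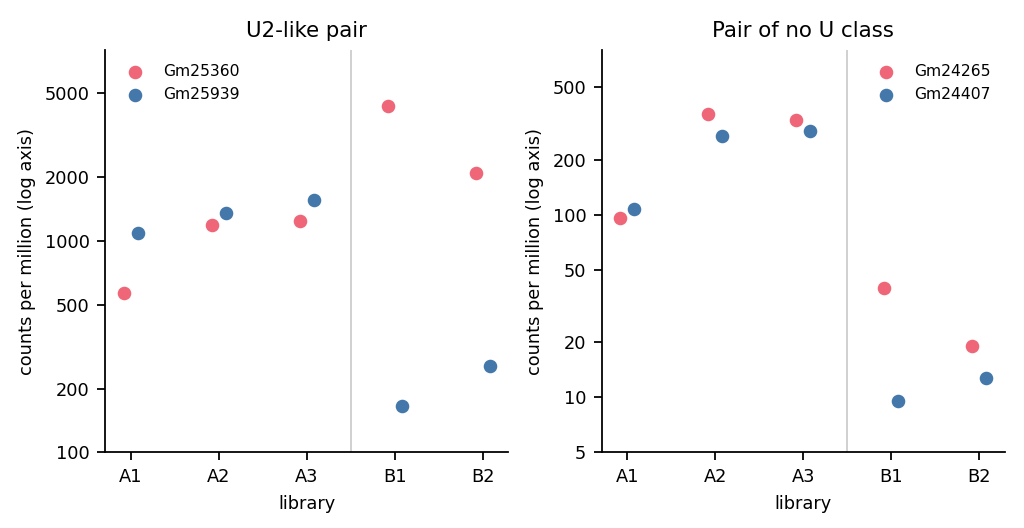
CPM (log axis) in each library for Gm25360 and Gm25939, which are 98.4% identical (left), and for Gm24265 and Gm24407, which are 98.6% identical (right), 1 point per gene and library. The left pair lies close together in variation A and apart in B1 and B2, by 26.4 and 8.19 times, whereas both genes of the right pair are lower in variation B.

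The likeness of the U2-like genes to Rnu2-10 was set beside their fold changes (the plot of fold change and likeness). A line at 98% identity, drawn after the values were seen, left 7 genes above it, of which 4 were lower, none higher, 2 not called and 1 not tested. Of the 12 genes below it 5 were higher, none lower, 6 not called and 1 not tested. Genes above the line held 34.1%, 33.2% and 35.4% of the U2-like counts in variation A, and 2.04% in B1 and 6.24% in B2. Here A1 was like A2 and A3. Gm25360, at 97.9% identity, lies just under the line, and its counts weigh heavily in these shares. Of the genes below the line, all but Gm22973, Gm25360, Gm25202 and Gm24763 had at most 13 counts in variation A and reached the minimum sum through the deeper variation B. A gene so low could hardly have entered as lower in variation B, so no link between likeness and direction is read from this split. Genes of high identity also have fewer unique windows, a median of 3.70% above the line and 88.2% below it, and the part of this in the values was not tested. On library totals the 4 lower calls stood, and 11 U2-like genes were higher, of which Gm23971 is above the line. Gm23971 also became a member through variation B.

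**Figure D4:**
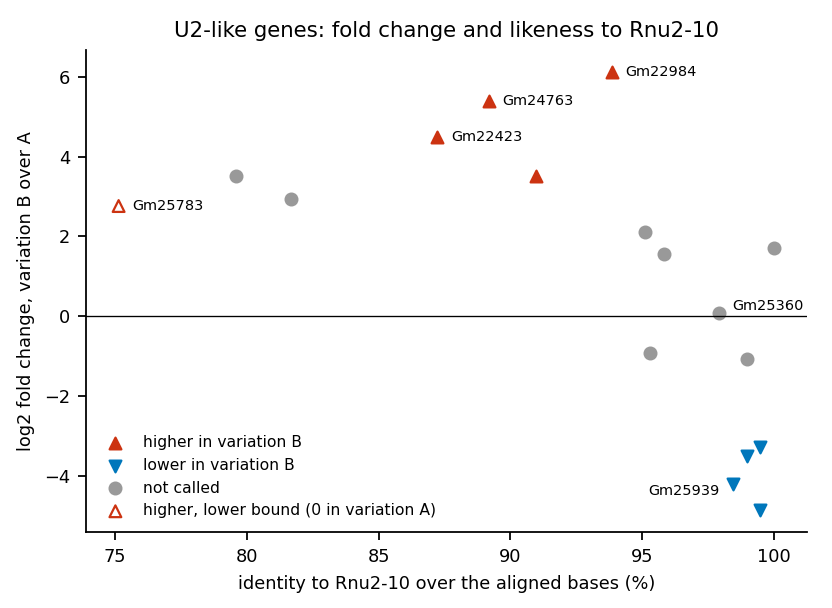
Log2 fold change of variation B over A (vertical axis) against identity to Rnu2-10 over the aligned bases (%, horizontal axis) for the 17 U2-like genes tested, 1 point per gene. The open triangle is the lower bound of Gm25783. The 4 genes called lower lie above 98% and the 5 called higher below 95%, where most genes became members through variation B; on library totals every gene has a higher value and 6 more are called higher.

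The B libraries also differed from each other on these genes. Among 10859 genes with at least 20 counts in both, the CPM of B1 was more than 1.5 times that of B2 in 13.8%, with a median ratio of 1.02. Among the 18 U2-like members so counted it was in 12, or 66.7%, and the median ratio was 2.16. For the 6 U5-like members the median ratio was 1.00 and none passed 1.5. For U2-like genes the median was 1.07 above the 98% line and 2.34 below it. Only 2 libraries of variation B exist, so whether this is a property of B1 or of B2 was not tested.

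A few members remain. Gm22814, like U6 and in an intron of Camk4, had 0, 1 and 0 counts in variation A, with 14 in B1 and 46 in B2. It is 73.0% identical to Rnu6 over 100 bases. Gm25541, like no named gene, had 3, 2 and 1 counts in variation A, with 20 in B1 and 43 in B2. Gm23849, identical to Rnu2-10, had 3, 1 and 1, with 7 in B1 and 75 in B2. Rnu2-10 itself had 0 counts in variation A, 5 in B1 and 2 in B2, and 4 snRNA genes share its sequence. Rnu6 had 0 counts everywhere, and 43 genes share its sequence, so the absence of U6 counts cannot be read as absence of U6. Rnu7, the snRNA of histone mRNA 3′ ends, also had 0, with 75.8% unique windows, and Rnu6-ps2 had 1 count, in B1. Just inside the minimum was Gm25581, with a sum of 52 from 10, 17 and 3 counts in variation A and 17 and 5 in B1 and B2. Just outside was Gm29163, with a sum of 46 from 3 counts in A2 and 43 in B1.

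The mRNAs of the proteins that bind or make snRNAs were also looked at. Of 86 genes on 8 lists 80 were tested, with 8 higher in variation B, 9 lower and 63 not called, and a median log2 fold change of 0.02 against 0.05 for all genes. These counts are close to the shares over all genes tested, 11.0% higher and 12.4% lower. They hold on the TMM scale. On library totals Snrpd2, Eftud2, Snrnp25, Ints5 and Tut1, all called lower, changed direction. Lsm7, Snrpa, Snrpc and Ints1 lost their lower calls there, so none of the 9 stood on that scale. The Sm core, which forms the ring on U1, U2, U4 and U5, had 2 higher and 1 lower of 6 tested, and the LSm ring of U6 also had 2 higher and 1 lower of 6. Snrpe, of the Sm core, was at 1.96 (edgeR with Benjamini-Hochberg adjusted p = 0.0250), a call that was lost without A2, A3, B1 or B2. Snrpb, an Sm protein, had a CPM of 51.7, 24.2 and 23.6 in variation A, against 765 in B1 and 1102 in B2. Its log2 fold change was 3.39 (approximate SE 0.34, edgeR with Benjamini-Hochberg adjusted p = 0.000949). Lsm3, an LSm protein, had 8.69, 3.11 and 2.53, against 229 and 284. It was at 4.32 (approximate SE 0.38, edgeR with Benjamini-Hochberg adjusted p = 0.000577), and since an exon of it overlaps AC161456.1 its counts are uncertain. For both genes the B libraries lay far above variation A, and both kept their calls under all alternatives, with adjusted p no higher than 0.0121 (edgeR, Benjamini-Hochberg). On the lower side were Snrpd2, an Sm protein, at -1.38, and Lsm7 at -2.45. Snrpd2 was at 0.08 on library totals and Lsm7 at -0.98, neither called, and the call of both was also lost without A2, A3, B1 or B2 (edgeR with Benjamini-Hochberg adjusted p up to 0.875 and 0.234 over their alternatives).

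Among proteins of single particles, the U1 list had 2 of 3 lower, Snrpa and Snrpc, of which Snrpc was at -1.98 (edgeR with Benjamini-Hochberg adjusted p = 0.0248). Snrpa was at -1.68 (edgeR with Benjamini-Hochberg adjusted p = 0.0495), and an exon of it overlaps BC024978, so its counts are uncertain. The CPM of Snrpa was 7.82, 4.66 and 5.05 in variation A, against 3.16 and 6.79 in variation B, which overlap. Its mean CPM, 5.85 in variation A and 4.97 in variation B, differed by less than 2-fold, so its call did not stand on library totals. On library totals Snrpc shrank to -0.49 and was not called (edgeR with Benjamini-Hochberg adjusted p = 0.359, the highest over its alternatives, the lowest being 0.00158 with DESeq2). Its call was also lost without A2 or A3 (edgeR with Benjamini-Hochberg adjusted p = 0.121 and 0.0898), and without a B library (0.118 and 0.175). None of 12 U2 and none of 6 U4/U6 proteins was called. Of 8 U5 proteins 1 was lower, the GTPase Eftud2, at -1.10, which turned to 0.40 on library totals and was lost without A2, A3, B1 or B2. Of 8 minor spliceosome proteins Zcrb1 was higher at 2.80 (edgeR with Benjamini-Hochberg adjusted p = 0.00463, lost without B2 at 0.0596) and Snrnp25 lower at -1.34, which turned to 0.15 on library totals and was lost without A2, A3, B1 or B2. The list of snRNA synthesis and assembly had 3 higher and 3 lower of 31 tested. On it Ints6, a subunit of the Integrator complex that trims snRNA 3′ ends, had a CPM of 4.35, 1.55 and 2.53 in variation A, against 74.2 and 75.5 in B1 and B2. It was at 3.37 (approximate SE 0.38, edgeR with Benjamini-Hochberg adjusted p = 0.00147) and kept its call under all alternatives, at no more than 0.0184, though an exon overlaps Serpine3. Ints1, of the same complex, was at -2.02 (edgeR with Benjamini-Hochberg adjusted p = 0.00965), though an exon of it overlaps Mir7037. Its call was lost on library totals at -0.48, and without B1 or B2, at -2.12 and -1.94.

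**Figure D5:**
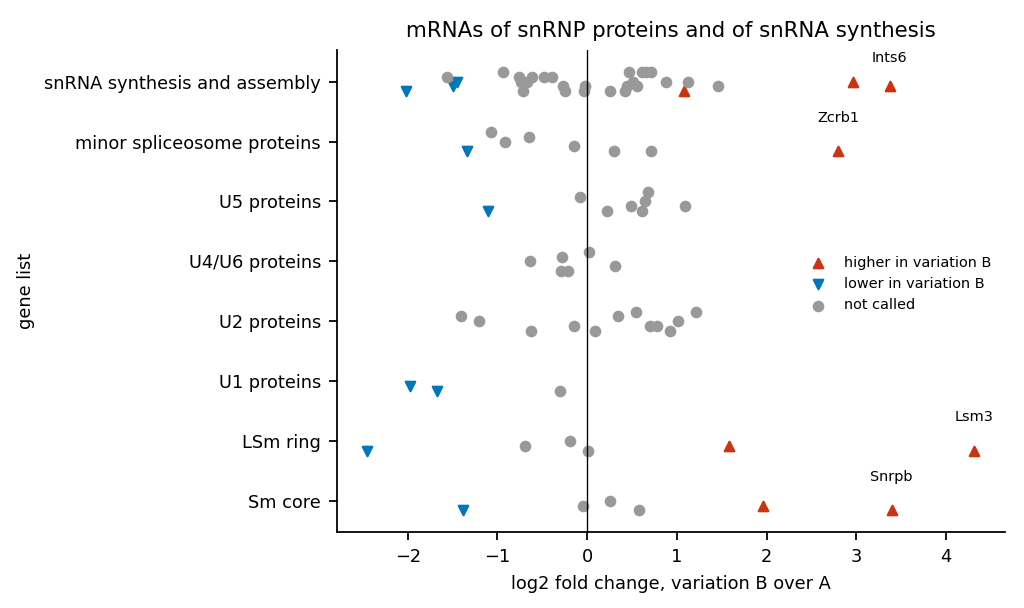
Log2 fold change of variation B over A (horizontal axis) for the 80 tested genes of 8 lists of snRNP proteins and snRNA synthesis factors (vertical axis), 1 point per gene. Lsm3, Ints6 and Snrpb lie furthest to the right, between 3.37 and 4.32, and the lower calls lie between -2.45 and -1.10, of which Snrpd2, Eftud2, Snrnp25, Ints5 and Tut1 turn above 0 on library totals.

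A list of other small or nuclear RNAs was looked at as well. Rn7sk, the 7SK RNA that holds back transcription elongation, had a CPM of 1217, 707 and 795 in variation A, against 2178 and 1762 in variation B. Its log2 fold change was -0.34 (edgeR with Benjamini-Hochberg adjusted p = 0.522), which turned to 1.12 on library totals and was not called on either scale. Rpph1, the RNA of RNase P, had 52.2, 105 and 108 against 51.6 and 30.2, and was at -2.70 (edgeR with Benjamini-Hochberg adjusted p = 0.0124), lost on library totals (0.0763) and without B1 or B2 (0.0664 and 0.133). It overlaps an exon of Ccnb1ip1 and is uncertain. Of 8 genes tested on this list 1 was higher, Malat1, 4 were lower (Rpph1, Rny3, Rn7s1 and Rn7s2) and 3 were not called, and Rny3 went from -1.34 to 0.19 on library totals. All these calls were lost without B1 or B2. Exons of Malat1, Rn7s1 and Rn7s2 also overlap other genes, so these are uncertain too. Terc had 0 counts in every library, as had Rmrp, whose level cannot be read because a pair of overlapping entries carries that name and reads on both were left out. Small Cajal body RNAs, which guide the modification of snRNAs, took 0.0404%, 0.0724% and 0.0608% of the counts in variation A, and 0.0547% and 0.0435% in variation B, which overlap.

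The label EL4, a T-cell lymphoma line, was checked against marker genes. Of 9 T-lymphocyte markers 8 were tested, and only Trbc1 was near 0, with 1 count in each B library. Their summed CPM was 644, 385 and 362 in variation A, and 1797 and 1804 in B1 and B2, with Thy1 the most counted. Cd3g (2.00) and Cd3e (1.13) were called higher on the log2 scale and Trbc2 (-1.17) lower, and Trbc2 turned to 0.28 on library totals. All 3 calls were lost without B1 or B2, and those of Cd3e and Trbc2 also without A2 or A3. An exon of Cd3e overlaps Gm48719, so its counts are uncertain. The 4 B-lymphocyte markers summed to at most 0.503 CPM, in B1, with Ms4a1 at 0 throughout, and the 2 erythroid markers to at most 0.274, in B1, with Hbb-bs at 0 throughout. The 4 myeloid markers summed to 1.30, 2.89 and 1.68 CPM in variation A and to 5.21 and 5.79 in B1 and B2. The most counted of them was Lyz2, at 0 in variation A with 73 counts in B1 and 133 in B2, a call that was lost without A2, A3, B1 or B2.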

How the data were processed

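Surface-seq of EL4 cells was measured in 5 libraries, 3 of variation A and 2 of variation B, grouped by the library names. After trimming by Trimmomatic 0.36, the authors mapped reads on GRCm38 by STAR 2.7.3a and counted exons of GENCODE M24 genes with featureCounts 1.6.4, without strand, multi-mapping or overlap options. The deposited values are raw counts per gene, not normalized. Symbols, types and transcript sequences came from GENCODE M21 by identifier. Members were snRNA genes with a summed count of at least 50. Members and lists were chosen with earlier results of these data known.

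Variations were compared on all genes by the quasi-likelihood test of edgeR 4.0.16 under R 4.3.3, after TMM scaling and its own low-count filter, and Benjamini-Hochberg adjustment over the 10287 genes tested. Standard errors are approximate, from the test statistic. The test was checked on simulated counts. Alternatives were RLE factors, library totals, TMM without ribosomal, mitochondrial and snRNA genes, no filter, DESeq2 1.42.0, the replicate number as a block, other totals and minimum sums, and each library left out. Wilson intervals used scipy 1.17.1 and classes used blastn 2.17.0. Windows of 30 bases were searched in all GENCODE M21 transcripts on both strands, and the genome sequence was not used here. Genes overlapping the same place were left out of this search.

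Named genes were members with a class symbol, the 8 with the highest mean CPM in each variation, the 5 largest rises and 5 largest falls among calls, the largest rise and fall called on each protein list, and the pair at the minimum. The 98% identity line, the minimum of 20 counts for ratios within a variation, the pair comparisons and other genes named were chosen after values were seen. Sequences of the U1-like, U2-like and U5-like genes are not reported here.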

Additional observations from a re-analysis of the deposited data

How the results depend on the processing

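Under RLE factors, TMM without ribosomal, mitochondrial and snRNA genes, no filter and DESeq2, the same 5 members stayed higher and the same 22 lower in variation B, and DESeq2 called 1 more lower. Library totals gave 11 higher and 21 lower, and over all genes 5654 higher and 302 lower. With each library left out, 3 to 9 members were higher and 4 to 26 lower, and 161 to 2526 genes of all types were higher and 137 to 1821 lower. Fits without a B library leave 1 there, assumed to vary like variation A.

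With the replicate number as a block, 6 members were higher, Gm25202 being gained, and 21 lower, Gm22068 being gained, and 813 genes of all types were lower. Under it the calls of Gm25313 (-5.56, edgeR with Benjamini-Hochberg adjusted p = 0.152) and Rnu5g (-5.36, 0.0881) were lost, as were those of Snrpd2, Lsm7, Snrpc, Eftud2 and Snrnp25 (0.0520 to 0.235), which no filter also ended. Deviations of same-numbered libraries correlated at -0.10 and -0.04, and so did not pair.

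Among genes picked by the naming rule, directions reversed for Gm22973 (0.61), Snrpd2 (0.0776), Eftud2 (0.40) and Snrnp25 (0.15) on library totals, and Gm25360, from -0.52 to 0.50 with a library left out. Of others in the text, Gm24497 (0.51), Rn7sk (1.12), Rny3 (0.19), Trbc2 (0.28), Ints5 (0.05) and Tut1 (0.06) reversed on library totals. The mean share of snRNA counts differed by -17.7 points without ribosomal and mitochondrial genes, and a minimum sum of 20 gave 66 members. The pair at the minimum was left out of the count of changes, which covers 26 named genes. Of 284 comparisons of these genes with an alternative, 211 kept direction and call, 65 lost the call, 2 gained one and 6 reversed. The cause was not tested. Depth limits variation A, where 10 members had at most 3 counts in every library.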
